A study of Mus musculus with 4 samples.

Results

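The cells described here are mesenchymal cells of the embryonic mouse nose in which the transcription factor gene Foxl2 or the angiotensin II receptor gene Agtr2 was detected. A cell was a member when it held at least 3 unique molecular identifiers (UMIs, each marking 1 captured transcript) of Col1a1, Col1a2 and Col3a1 together and at least 1 UMI of Foxl2 or Agtr2. It also had to hold at least 1 UMI of Cdh18, Epha6 or Tmeff2 and none of Shox2, Pou3f4, Sp7, Epcam or Cdh5. The cells were thus selected on measured counts of these 13 genes. Cells were kept when they showed 500 genes or more and no more than 10% of their UMIs were mitochondrial, and 631 of the 13739 kept cells met this rule. Whole noses had been dissected at embryonic day 14.5 and profiled with 10x Genomics 3-prime single-cell RNA sequencing. The titles give 2 control libraries ("WT") and 2 mutant libraries ("Sox10Cre/Yap/Taz cKO"). The mutants are described as Sox10cre;yap flox/WT;taz flox/flox, so that a Cre recombinase driven by Sox10 removes 1 allele of Yap1 and both alleles of Wwtr1 (Taz) in cells that have used Sox10. Control animals are C57Bl/6J by the sample labels and yap flox/flox;taz flox/flox without Cre by the series design, and this conflict cannot be resolved from the sources used here.

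Foxl2 encodes a forkhead transcription factor best known for keeping granulosa cells of the ovary in their fate and for its part in eyelid formation. Agtr2 encodes the type 2 receptor for angiotensin II, a G protein-coupled receptor that fetal mesenchyme makes in large amounts and most adult tissues do not. Nasal mesenchyme comes mostly from cranial neural crest, which passes through a Sox10-positive stage. YAP and TAZ are the coactivators held in check by the Hippo pathway, and they reach DNA through TEAD factors.

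Kept cells numbered 4075, 2474, 2995 and 4195, given for control 1, then control 2, mutant 1 and mutant 2, which is the order of every set of 4 values below. The cells of interest numbered 226, 153, 92 and 160, with a median of 6854, 7071, 9781 and 5533 UMIs per cell. No barcode belonged to a cell of interest in more than 1 library, and 3 to 5 kept barcodes were shared by each pair of libraries. Mutant 1 was the deepest library and mutant 2 the shallowest. The labels do not say that the libraries came from separate litters, so p-values measure the spread between these libraries only. Levels below are CPM, the counts per 1000000 UMIs, in the summed cells of a library, which count molecules per transcript and not per length. In summed cells, fewer cells with a transcript and less transcript per cell cannot be told apart.

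The start regions of the genes the results turn on are shown first, from 250 bases before to 50 after the annotated start (RefSeq, GRCm38.p6), each in its gene's direction. The gene bounds given with them are those of GENCODE over all transcripts, which begin before the RefSeq start for Foxl2 and Agtr2, so the Foxl2 window lies within its GENCODE bounds and the Agtr2 window spans their start. Foxl2 (ENSMUSG00000050397) lies on chromosome 9 at 98955288 to 98958543, Agtr2 (ENSMUSG00000068122) on chromosome X at 21484544 to 21489164, Dlk1 (ENSMUSG00000040856) on chromosome 12 at 109452823 to 109463336 and Epha3 (ENSMUSG00000052504) on chromosome 16 at 63543534 to 63864175. Capitals mark the TEAD core motif GGAATG and the forkhead motif GTAAACA, searched on both strands. The first was held by 14.6% and the second by 3.66% of 32544 mouse start regions of this length. A match is a description of the letters and not a bound site.
Foxl2, chr9:98955357-98955656, plus strand: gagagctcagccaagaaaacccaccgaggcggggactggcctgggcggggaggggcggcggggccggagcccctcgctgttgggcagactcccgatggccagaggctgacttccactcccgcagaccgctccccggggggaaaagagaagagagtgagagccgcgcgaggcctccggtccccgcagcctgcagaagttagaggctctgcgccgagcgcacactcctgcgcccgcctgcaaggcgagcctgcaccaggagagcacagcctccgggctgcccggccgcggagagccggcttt
Agtr2, chrX:21484374-21484673, plus strand: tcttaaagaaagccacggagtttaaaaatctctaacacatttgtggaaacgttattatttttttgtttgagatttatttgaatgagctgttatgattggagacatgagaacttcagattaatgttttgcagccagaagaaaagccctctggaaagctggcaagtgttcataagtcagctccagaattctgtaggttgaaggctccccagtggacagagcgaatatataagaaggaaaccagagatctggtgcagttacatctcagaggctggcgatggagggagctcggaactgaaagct
Dlk1, chr12:109452573-109452872, plus strand: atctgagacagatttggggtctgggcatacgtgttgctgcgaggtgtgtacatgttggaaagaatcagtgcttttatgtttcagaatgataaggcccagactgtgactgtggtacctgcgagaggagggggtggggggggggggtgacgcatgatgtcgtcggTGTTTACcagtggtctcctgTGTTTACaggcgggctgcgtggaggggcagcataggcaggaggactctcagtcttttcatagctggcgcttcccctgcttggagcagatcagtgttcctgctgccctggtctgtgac
Epha3, chr16:63864126-63864425, minus strand: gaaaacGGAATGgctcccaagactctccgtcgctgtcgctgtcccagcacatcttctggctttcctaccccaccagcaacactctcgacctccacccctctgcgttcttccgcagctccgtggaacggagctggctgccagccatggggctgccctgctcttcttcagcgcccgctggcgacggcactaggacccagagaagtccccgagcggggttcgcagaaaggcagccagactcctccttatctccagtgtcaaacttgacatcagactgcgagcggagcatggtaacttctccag
Foxl2 and Agtr2 held no match to either motif in this window. Epha3 held 1 match to the TEAD motif, near the far end of the window, and Dlk1 held 2 matches to the forkhead motif. The Foxl2 region was 71.3% G and C, and the Agtr2 region 41.3%.

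The genes of the rule are described here without a test, because they chose the cells. Foxl2 stood at 99.2, 98.9, 38.2 and 109.6 CPM, from 165, 117, 36 and 113 UMIs. Mutant 1 was the low library for Foxl2, and the other mutant was above both controls. Agtr2 stood at 262, 172, 272 and 217 CPM, and the groups overlapped. Values were set against 2227 other mesenchymal cells that held Shox2 or Pou3f4, 2 factors of other nasal mesenchyme, and neither Foxl2 nor Agtr2. Cdh18, which encodes a cadherin, was at 261, 211, 415 and 182 CPM against 54.9, 52.1, 52 and 62.8 CPM in those cells. Epha6, an ephrin receptor gene, was at 170.1, 198, 85.9 and 225 CPM against 46.5, 87.2, 29.4 and 56.1 CPM. Tmeff2, a transmembrane protein gene, was at 299, 308, 334 and 331 CPM against 33.6, 38.4, 13.4 and 26.8 CPM and was the most frequent of the 3, with a UMI in 451 of the 631 cells. Dlk1 marked the cells in the label without being part of the rule. It encodes a Notch ligand-like protein of fetal mesenchyme and preadipocytes, and it stood at 2399.9, 1517, 1838 and 1807 CPM against 439.9, 418, 329 and 437 CPM. A Dlk1 UMI was found in 89.8, 86.3, 78.3 and 82.5% of the cells and in 50.7, 45.8, 39.2 and 49.4% of the Shox2 or Pou3f4 cells. Cells that passed the rule with a single UMI of Foxl2 or Agtr2 held Dlk1 at 1861, 1021, 1039.5 and 1336 CPM, against 2737, 2015, 2217 and 2168 CPM in those with at least 2. Cells just outside the rule, which lacked only Cdh18, Epha6 and Tmeff2, held it at 946, 1114, 1009 and 1082 CPM. Those that lacked only Foxl2 and Agtr2 held it at 604, 572, 584 and 729.7 CPM. Cells with single UMIs and cells without Cdh18, Epha6 and Tmeff2 had like levels in control 2 and mutant 1, where the former were at 1021 and 1040 CPM and the latter at 1114 and 1009 CPM. Cells kept out only by Shox2, Pou3f4, Sp7, Epcam or Cdh5 held Dlk1 at 1804, 1933, 2157 and 1464 CPM, within or near the range of the members.

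Of the cells, 225, 153, 92 and 160 held at least 3 of 9 general mesenchyme genes. The 3 collagen genes of the rule are among these 9, so the rule itself favoured that count. Of the others, Pdgfra was detected in 54.0, 67.3, 68.5 and 51.25% of the cells. Twist1 was detected in 77.4, 83.7, 88.0 and 79.4% and Prrx1 in 87.2, 79.7, 77.2 and 78.75%. In the Shox2 or Pou3f4 cells the shares were 56.6, 56.2, 54.3 and 49.5% for Pdgfra. They were 84.8, 89.6, 89.3 and 84.1% for Twist1 and 81.1, 86.6, 81.8 and 78.6% for Prrx1. Defining markers of macrophages, glia and epithelium were scarce in the sums over all of these cells. The 8 macrophage markers summed to 57.7, 19.4, 12.7 and 16.5 CPM, against 26.4, 17.4, 12.2 and 40.6 CPM in the Shox2 or Pou3f4 cells. The 8 glial markers summed to 61.3, 22.8, 21.2 and 33.9 CPM, against 21.1, 16.6, 31.0 and 85.0 CPM. The 8 epithelial markers summed to 12.6, 4.23, 6.36 and 7.76 CPM, against 14.3, 7.39, 6.17 and 8.93 CPM. Sox10 itself was at 1.20, 0, 0 and 0.970 CPM. The neuron list reached 298, 265, 438 and 329.7 CPM, against 329.8, 329.8, 301 and 305 CPM in the Shox2 or Pou3f4 cells described below, most of it from Gap43 at 181, 154, 316 and 223 CPM and Stmn2 at 70.3, 57.5, 19.1 and 37.8 CPM. The mural cell list reached 174, 243, 121 and 209 CPM against 139, 190.2, 187 and 143 CPM, and mutant 1 was the one library in which it was lower. The 8 endothelial markers summed to 65.5, 65.9, 65.7 and 39.8 CPM, against 16.4, 18.5, 20.1 and 18.6 CPM, and were higher in all 4 libraries. Of these Tek alone gave 39.7, 46.5, 39.2 and 11.6 CPM, while the defining endothelial gene Pecam1 was at 1.80, 0, 2.12 and 1.94 CPM. The 8 dermal fibroblast genes reached 1162, 1362, 1255 and 998 CPM, below the 1355, 1509, 1368 and 1367 CPM of the Shox2 or Pou3f4 cells in all 4 libraries. The 8 genes listed for meninges reached 651, 759.7, 667 and 595 CPM, above the 572, 525, 438 and 494 CPM of those cells in all 4. In the test against those cells given below, 5 of the 8 dermal genes were called higher and 3 lower. Of 7 meningeal genes tested, 2 were called higher and 2 lower. Foxl2 UMIs also occurred in cells chosen by at least 3 macrophage markers, in 2 of 58, 0 of 57, 0 of 41 and 1 of 82 of them (median 9783, 8866, 9871 and 7897 UMIs per cell). A count of 0 of 41 allows a share of up to 7.32%. In endothelial cells chosen the same way, which held a median of 15354, 13828, 19134 and 7894 UMIs, Foxl2 was found in 6.35, 10.7, 8.33 and 2.27% (4 of 63, 3 of 28, 3 of 36 and 2 of 88). In collagen-positive mesenchyme, with a median of 6524, 6620.00, 8213 and 5018 UMIs, it was found in 10.2, 9.87, 4.24 and 7.03%. In control 2 and mutant 1 the mesenchymal share of Foxl2 was thus not above the endothelial share. The endothelial shares of these libraries rest on 28 and 36 cells of greater depth, and the macrophages of both held no Foxl2 UMI. A comparison of these shares at matched depth was not run. Agtr2 was found in 0, 0, 0 and 1 of the macrophages, in 1, 1, 0 and 2 of the endothelial cells and in 16.3, 13, 13 and 12.2% of the mesenchymal cells.

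Most of the cells held only 1 of the 2 genes. Agtr2 without Foxl2 was found in 348 cells, Foxl2 without Agtr2 in 180 and both in 103. Per library, cells with Foxl2 alone were 58, 64, 12 and 46, or 25.7, 41.8, 13 and 28.8% of the group. Cells with Agtr2 alone were 125, 70, 66 and 87, or 55.3, 45.8, 71.7 and 54.4%. Mutant 1 stood out by its 12 cells with Foxl2 alone. Over all collagen-positive mesenchymal cells, Agtr2 was detected in 29.8, 22, 30.1 and 26.5% of the cells with Foxl2 and in 14.8, 12, 12.2 and 11.2% of those without. The share was higher among cells with Foxl2 in all 4 libraries, which is a description only. The part of depth per cell in it was not tested.

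**Figure D1:**
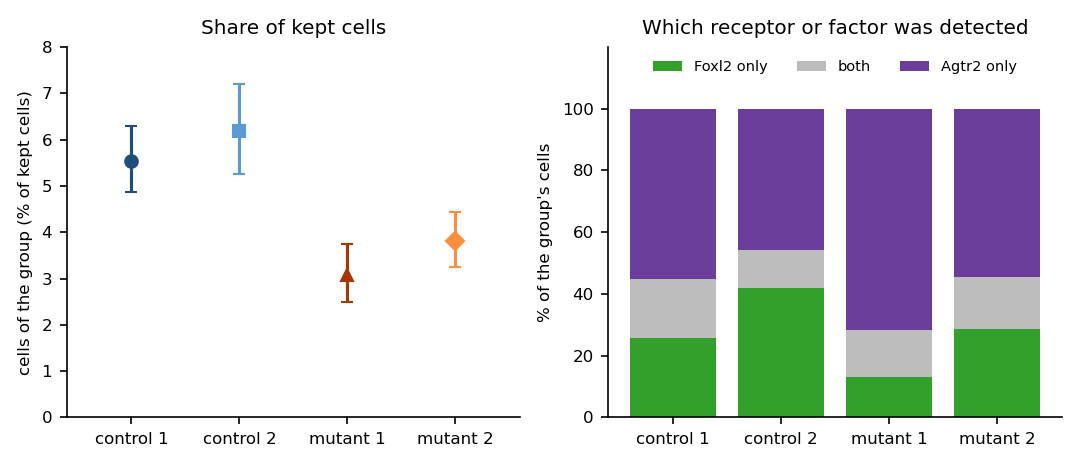
Left, the Foxl2 or Agtr2 cells as a percentage of kept cells in each library, with exact 95% binomial intervals that cover counting error only. Right, the share of those cells with Foxl2 alone, Agtr2 alone or both. The controls sit at 5.55% and 6.18% and the mutants at 3.07% and 3.81%, and mutant 1 has the smallest part with Foxl2 alone.

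Against the Shox2 or Pou3f4 cells, the Foxl2 or Agtr2 cells had more Grp, Tek, Mfap5, Dpt and Foxp2 transcripts and fewer of Casz1, Ism1, Trps1 and Msx1. The comparison used the sums of both kinds of cell within each library (edgeR quasi-likelihood test, library as a block, n = 4 libraries, Benjamini-Hochberg adjusted p under 0.05). Of 12079 genes tested, with the genes of the rule and Dlk1 left out, 1182 (9.79%) were higher and 941 (7.79%) lower. Log2 changes are given with their standard errors. Grp, which encodes gastrin-releasing peptide, led the higher genes at 22.8, 17.7, 23.3 and 30.1 CPM against 0.409, 0.369, 0.352 and 3.06 CPM, a log2 change of 4.60 ± 0.41. Tek, the angiopoietin receptor gene, was at 39.7, 46.5, 39.2 and 11.6 CPM against 3.07, 6.28, 0.352 and 0.765 CPM (3.92 ± 0.38). It was high in 3 libraries and lower in mutant 2, still above every comparison value. Of the endothelial list, Emcn was also called higher (2.07 ± 0.44), and of the mural list Kcnj8 (2.76 ± 0.42) and Abcc9 (2.18 ± 0.33) were. Against all other mesenchymal cells, Emcn (edgeR adjusted p 0.470) and Abcc9 (0.44, edgeR adjusted p 0.181) were not called. The part of endothelial or mural transcripts in these differences was not tested. Mfap5, a microfibril gene, changed by 3.28 ± 0.22, Dpt (dermatopontin), a matrix protein gene of skin and fascia, by 3.20 ± 0.19, and Col6a6, a collagen VI chain gene, by 3.26 ± 0.17. Cdh4 (R-cadherin) changed by 3.27 ± 0.19, Cavin2, a caveola coat gene, by 2.69 ± 0.18 and Mgst1, a glutathione transferase gene, by 2.40 ± 0.20. Pamr1 (2.45 ± 0.24), Klhl1 (2.48 ± 0.39) and Dpp4, a cell-surface peptidase gene (2.43 ± 0.27), rose as well. Foxp2, a forkhead repressor gene, was the most abundant of these at 559, 827, 446 and 643 CPM against 101, 161, 78.2 and 144 CPM, with a log2 change of 2.39 ± 0.073 (edgeR adjusted p 9.76e-10).

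The genes lowest in the Foxl2 or Agtr2 cells were led by Casz1 (-4.10 ± 0.36) and Ism1 (-3.26 ± 0.34). Trps1, a zinc finger repressor gene of cartilage and hair, was at 119.6, 145, 395 and 226 CPM against 1109, 1327, 1913 and 1483 CPM (-2.80 ± 0.12, edgeR adjusted p 1.67e-08). The highest Trps1 value of the Foxl2 or Agtr2 cells, in mutant 1, was below the lowest comparison value. Msx1, a homeobox gene of palate and teeth, was at 4.21, 6.76, 27.6 and 15.5 CPM against 72.9, 72, 92.8 and 83.7 CPM (-2.70 ± 0.25). Msx1 was called in all 14 alternatives, but the size of its change ran from -3.21 to -0.83 over them. Foxd1, a forkhead gene, changed by -2.33 ± 0.14 and Cyp26b1, which encodes an enzyme that degrades retinoic acid, by -2.54 ± 0.19. The secreted Wnt inhibitor genes Wif1 and Dkk1 changed by -2.28 ± 0.23 and -2.15 ± 0.27. Inhba, the activin A subunit gene, changed by -2.16 ± 0.20 and Alpl, a bone phosphatase gene, by -2.13 ± 0.21. Nav2 fell by 2.20 ± 0.15 and Cadps by 2.40 ± 0.33. Cadps was no longer called against the Pou3f4-positive cells alone, at -0.29. With control 1 left out the number of genes called was 1354. The Shox2 or Pou3f4 cells of control 2 held skeletal muscle markers at 315 CPM, against 14.3 to 24.8 CPM in the other libraries, and 1523 genes were called without that library.

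**Figure D2:**
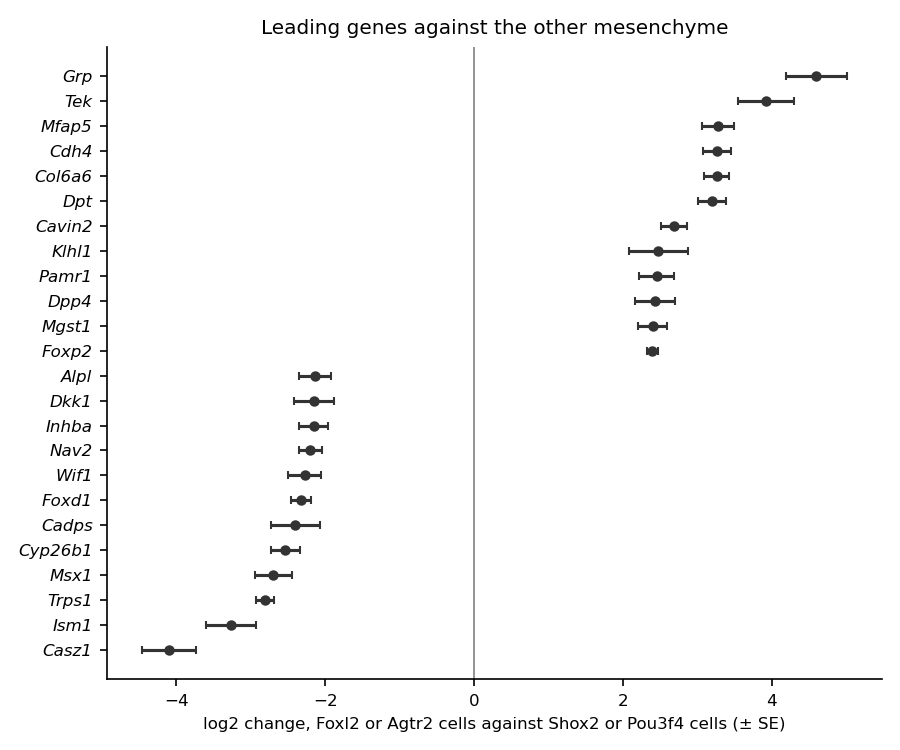
The 12 genes with the largest positive and the 12 with the largest negative log2 change (horizontal axis, ± SE) in the Foxl2 or Agtr2 cells against the Shox2 or Pou3f4 cells, among genes called, moving the same way in all 4 libraries and reaching 20 CPM. Grp is at 4.60 and Casz1 at -4.10.

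Genes of the imprinted growth network, expressed from 1 parental copy and linked to fetal growth, were mostly higher. Of 23 tested, 18 were called higher and 2 lower, with a median log2 change of 0.94, against 0.00078 over all genes tested. Meg3, Rian and Mirg are non-coding RNA genes of the same imprinted domain as Dlk1. Meg3 was at 2349, 2115, 2329 and 2132 CPM against 839, 973, 761 and 1033 CPM (1.34 ± 0.077), and Rian and Mirg changed by 1.43 ± 0.12 and 1.34 ± 0.16. Igf2, the insulin-like growth factor 2 gene, changed by 1.04 ± 0.12 and its neighbour H19, a non-coding RNA gene, by 1.04 ± 0.12. Cdkn1c, which encodes a cell cycle inhibitor, was at 2652, 2033, 2498 and 2329 CPM against 1037, 982, 871 and 1137 CPM (1.26 ± 0.068), and Plagl1, a zinc finger gene, changed by 1.44 ± 0.13. The 2 lower genes were Nnat (-0.41 ± 0.086) and Asb4 (-2.94 ± 0.51). Nnat was not called against Pou3f4-positive cells alone (-0.14), a setting in which Asb4 was not tested.

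Extracellular matrix genes also moved together, with 32 of 45 called higher and 4 lower and a median log2 change of 0.65. The proteoglycan gene Dcn (decorin), which is on both of these lists, was at 2272, 1536, 1555 and 1722 CPM against 581, 484, 407 and 572 CPM (1.81 ± 0.064). Lum (lumican) changed by 0.99 ± 0.065, Fn1 (fibronectin) by 1.12 ± 0.057, Ogn (osteoglycin) by 1.28 ± 0.12 and Fbln5, an elastic fibre gene, by 1.08 ± 0.084. The 3 collagen genes of the rule are left out of these counts. Col23a1, a transmembrane collagen gene, was the lowest of the 4 at -1.44 ± 0.13.

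S and G2/M phase genes were lower, with 26 of 37 called lower and 0 higher, and a median of -0.73. Mki67, which marks dividing cells, was at 24, 60.0, 59.4 and 68.9 CPM against 89.7, 93.4, 99.9 and 109 CPM (-0.94 ± 0.17), and Ccnb2 (cyclin B2) changed by -1.01 ± 0.13. The count was 17 without control 1, 18 without control 2, 15 with DESeq2, 17 in cells with at least 2 UMIs of Foxl2 and Agtr2, and 10 against all other mesenchymal cells. Immediate early and heat shock genes, which can respond to tissue dissociation, were higher in 15 and lower in 2 of 29. Among them Atf3 changed by 1.86 ± 0.12, Klf2 by 1.48 ± 0.11 and Fos by 0.90 ± 0.061. Their part in the other differences was not tested.

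Factors that pattern the head mesenchyme split, with 10 of 51 called higher and 19 lower. Tbx22, a T-box gene of the palate, changed by 2.78 ± 0.33, and Tshz2 and Osr2, both zinc finger genes, by 1.23 ± 0.085 and 0.96 ± 0.10. Pax9, a paired-box gene of palate and teeth, changed by -1.84 ± 0.25, but against Pou3f4-positive cells alone it stood at 0.96. Against those cells 18 of 42 factors were higher and 12 lower, so the balance of this list depended on the comparison cells. Of the other forkhead genes, Foxp1 changed by 0.94 ± 0.10, Foxf1 by -2.92 ± 0.35 and Foxf2 by -2.62 ± 0.55, with 2 of 16 called higher and 4 lower. Cadherin genes were called higher in 11 and lower in 1 of 26, among them Cdh9 (2.13 ± 0.42) and Cdh6 (0.67 ± 0.10).

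Of the rest of the renin-angiotensin list, 9 genes were abundant enough to test, and 4 were called higher and 1 lower. Agtr1a, the type 1 receptor gene, was at 9.62, 3.38, 5.30 and 5.82 CPM against 3.28, 2.59, 1.94 and 2.04 CPM (1.32 ± 0.40). This call was lost without control 1, mutant 1 or mutant 2, with DESeq2, and against all other mesenchymal or Shox2-positive cells (edgeR and DESeq2 adjusted p up to 0.299). Mtus1, which encodes a protein that binds the type 2 receptor, was at 43.3, 47.3, 12.7 and 30.1 CPM against 18.8, 15.5, 12.9 and 21.7 CPM (0.96 ± 0.22), and was not higher in mutant 1. Its call was lost without either control and with DESeq2. Zbtb16, whose protein also partners that receptor, changed by 1.35 ± 0.26. Foxl2os, the antisense neighbour of Foxl2, was at 7.21, 10.1, 0 and 5.82 CPM against 1.43, 1.11, 0.705 and 1.28 CPM (2.22 ± 0.55), a call also lost without either control and with DESeq2. Use of strand in the counting is not given in the sources used here, and whether reads of Foxl2 entered the Foxl2os count was not tested. Hedgehog readout genes were lower, with Ptch1 at -1.71 ± 0.13 and Gli1 at -1.35 ± 0.27, and 4 of 12 genes of that pathway lower and 3 higher. In the retinoic acid list, Aldh1a2, which encodes an enzyme that makes retinoic acid, changed by 0.95 ± 0.27, with mutant 1 the one library below its comparison value, and Crabp1, a retinoic acid carrier gene, by -1.08 ± 0.10, with 3 of 16 called each way. The call of Aldh1a2 was lost without control 2 or mutant 2, with DESeq2, with comparison cells matched on depth, and against all other mesenchymal or Shox2-positive cells (adjusted p up to 0.497 with edgeR). Of 19 YAP and TAZ target genes, 5 were higher and 3 lower, and Axl, a receptor kinase gene, changed by 0.91 ± 0.13.

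Signalling genes moved in both directions. Over all genes tested, 9.79% were called higher and 7.79% lower. Of 44 Wnt pathway genes, 12 were called higher and 11 lower, among them the receptor gene Fzd4 (1.58 ± 0.22), the ligand gene Wnt2 (1.01 ± 0.22) and the target genes Axin2 (-0.68 ± 0.16) and Lef1 (-1.77 ± 0.14). Of 41 BMP and TGF-beta genes, 12 were higher and 6 lower, with the receptor gene Bmpr1b at 2.08 ± 0.19, the antagonist gene Grem1 at 1.21 ± 0.25 and the ligand gene Bmp4 at -1.14 ± 0.15. Of 20 FGF pathway genes, 8 were higher and 5 lower, with the ligand gene Fgf9 at 2.61 ± 0.40 and the receptor gene Fgfr2 at -0.80 ± 0.10. Guidance genes were higher in 11 and lower in 3 of 32, among them Sema3c (1.77 ± 0.17) and the chemokine gene Cxcl12 (1.34 ± 0.091). Eph and ephrin genes were called higher in 3 and lower in 3 of 17, with Ephb1 at 0.91 ± 0.22 and the ligand gene Efna5 at -0.78 ± 0.092. Of 23 Hippo pathway components 1 was called, Amotl2 (0.45 ± 0.11). Notch pathway genes gave 1 call higher, Hes1 (0.67 ± 0.11), and 2 lower, Hey1 (-1.45 ± 0.30) and Hey2 (-1.66 ± 0.25), of 11. The Hes1 call was lost against all other mesenchymal cells (0.090, edgeR adjusted p 0.642). Without control 1 the calls of Wnt2, Grem1, Ephb1 and Amotl2 were lost, and DESeq2 did not call Wnt2, Axin2, Ephb1, Amotl2 or Hey1.

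The cells with Foxl2 alone and those with Agtr2 alone differed from each other in many genes. In the same kind of test within libraries, with the genes of the rule left out, 72 of 8260 genes (0.872%) were higher in the cells with Foxl2 alone and 94 (1.14%) higher in those with Agtr2 alone. Klhl1, a kelch-like actin-binding protein gene, was at 22.1, 45.5, 33.3 and 153 CPM in the cells with Foxl2 alone and 2.08, 0, 6.16 and 0 CPM in those with Agtr2 alone, a log2 change of 4.59 ± 0.61 toward Foxl2. The groups did not overlap. Mgat4c, a glycosyltransferase-like gene, stood at 412, 157, 916 and 261 CPM in the cells with Foxl2 alone and 72.7, 18.2, 53.9 and 59.9 CPM in those with Agtr2 alone (2.90 ± 0.25). Tbx22 changed by 3.12 ± 0.46, Gata3, a zinc finger transcription factor gene, by 2.43 ± 0.37 and Dach1, a transcription cofactor gene of eye and limb, by 2.16 ± 0.29. The synaptic adhesion receptor gene Adgrb3 and Csmd3 changed by 2.30 ± 0.18 and 2.26 ± 0.22. Hcrtr2, an orexin receptor gene, changed by 3.19 ± 0.70, Sntg2 by 2.64 ± 0.59, Synpo2 by 2.19 ± 0.25 and the unnamed transcript Gm20754 by 2.17 ± 0.37. Foxp2 was at 915, 1143, 916 and 1027 CPM in the cells with Foxl2 alone and 316, 442, 365 and 218 CPM in those with Agtr2 alone (1.58 ± 0.14, edgeR adjusted p 4.60e-05), and Alx1, a homeobox gene of the midface and eye region, changed by 1.53 ± 0.19.

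Among the genes higher in the cells with Agtr2 alone, Dpt was at 7.36, 4.55, 66.6 and 7.67 CPM in the cells with Foxl2 alone and 141, 165, 105 and 96.6 CPM in those with Agtr2 alone (-3.36 ± 0.45). In the Foxl2-only cells of 3 libraries Dpt was as low as in the Shox2 or Pou3f4 cells (6.76, 15.9, 8.10 and 8.42 CPM), and mutant 1, with 12 such cells, was the exception. Dpp4 changed by -4.09 ± 0.64, Kcnq3, a potassium channel gene, by -4.81 ± 0.71 and Ccl11 (eotaxin), a chemokine gene, by -4.49 ± 0.85. Npy (neuropeptide Y) changed by -3.12 ± 0.53, Npr3, the natriuretic peptide clearance receptor gene, by -2.94 ± 0.46 and Vegfd, a lymphatic growth factor gene, by -2.93 ± 0.51. C1qtnf3 (-3.38 ± 0.61), Veph1 (-3.25 ± 0.51), Kcnj8 (-2.87 ± 0.64), Sema5b (-2.83 ± 0.50) and Cpa6 (-2.64 ± 0.44) complete the 12 largest. Kcnq3, Ccl11 and Npy were each at 0 in 3 of the 4 Foxl2-only sums, so the size of their fitted change depends on the prior count. Without control 2 the calls of Hcrtr2, Dpp4, C1qtnf3, Veph1, Npy, Npr3, Sema5b, Kcnj8 and Cdh4 were lost. Those of C1qtnf3, Vegfd and Kcnj8 were lost without control 1, that of Kcnj8 without mutant 2, and DESeq2 did not call Sntg2, Ccl11, C1qtnf3 or Kcnj8. Sntg2, Ccl11 and Hcrtr2 had a tested value in only 5, 6 and 7 alternatives, where genes such as Klhl1 and Dpt had 9. A lost call could not show in the settings that did not test them. Of the genes leading the whole group, Dpt, Dpp4 and Cdh4 (-1.65 ± 0.26) were thus higher with Agtr2 alone and Foxp2 and Klhl1 with Foxl2 alone. The other leading genes, Grp, Tek, Mfap5, Col6a6, Cavin2, Pamr1 and Mgst1, passed in neither direction.

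**Figure D3:**
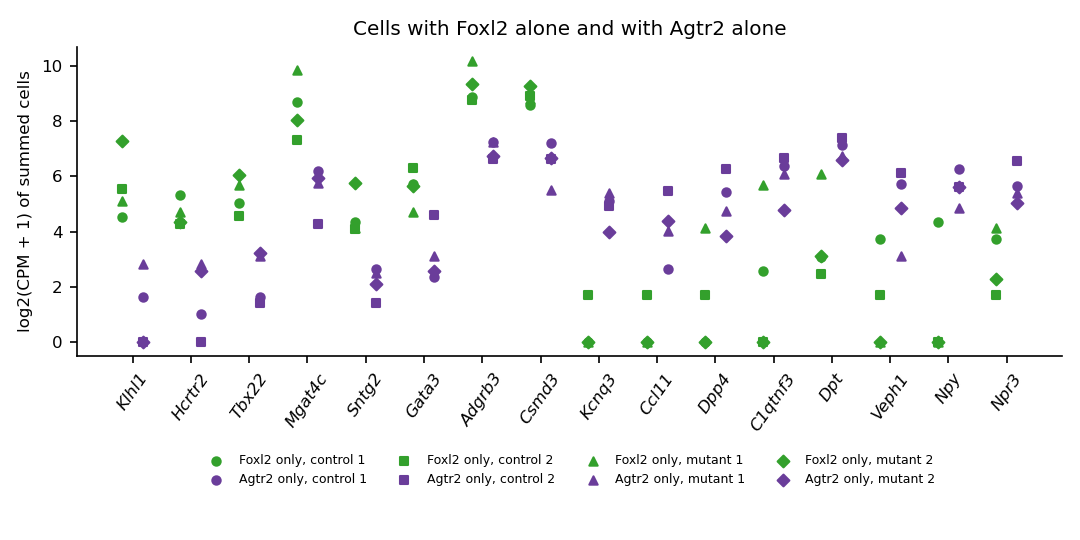
Level of 16 leading genes, as log2(CPM + 1), in the cells with Foxl2 alone (green) and with Agtr2 alone (purple), with 1 symbol shape per library. The 8 genes on the left are higher with Foxl2 alone in all 4 libraries and the 8 on the right higher with Agtr2 alone, where Dpt in mutant 1 has the highest Foxl2-only value at 66.6 CPM against 105 CPM.

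Imprinted growth genes were lower in the cells with Foxl2 alone. Of 22 tested, 12 were lower in the cells with Foxl2 alone and 0 higher, with a median log2 change of -0.72 against -0.0013 over all genes. Dlk1, 1 of the 12, was at 1285, 612, 541 and 1288 CPM in the cells with Foxl2 alone and 3060.3, 2136, 2177 and 2068 CPM in those with Agtr2 alone (-1.42 ± 0.16, edgeR adjusted p 2.50e-04), and the groups did not overlap. Mest, an imprinted hydrolase gene of mesoderm, was at 179, 100.1, 242 and 203 CPM in the cells with Foxl2 alone and 500.4, 372, 563 and 499 CPM in those with Agtr2 alone (-1.50 ± 0.15). Zim1 changed by -2.42 ± 0.37, Peg3 by -0.99 ± 0.14, H19 by -0.98 ± 0.13 and Meg3 by -0.71 ± 0.11. Matrix genes followed, with 9 of 42 lower and 1 higher with Foxl2 alone. Col12a1, a collagen gene of tendon and fascia, changed by -1.64 ± 0.22, Tnc (tenascin C) by -2.18 ± 0.26 and Thbs1 (thrombospondin) by -1.94 ± 0.37, while Lama2, a laminin gene, was higher at 1.32 ± 0.21. The count of lower matrix genes was 3 without control 1, 3 without control 2, 12 without mutant 1 and 6 without mutant 2, and the call of Thbs1 was lost without control 1, control 2 or mutant 2. Of the signalling genes, Sfrp2, a secreted Wnt regulator gene, changed by -1.24 ± 0.19, Sema3c, a guidance cue gene, by -1.66 ± 0.31 and the chemokine gene Cxcl14 by -1.14 ± 0.17. Rspo2, a Wnt enhancer gene, was higher with Foxl2 alone (1.49 ± 0.28), as was the cadherin gene Cdh6 (2.10 ± 0.27). The YAP and TAZ target gene Ccn2 was lower with Foxl2 alone (-2.07 ± 0.42), the single call among 16 targets. It was lost without control 1, without control 2 and with DESeq2 (edgeR adjusted p up to 0.368), and 4 targets were called without mutant 1. The calls of Meg3, Sfrp2, Sema3c and Rspo2 were lost without control 2, and that of Rspo2 also without mutant 2. S and G2/M phase genes gave 0 calls of 33, with 0 at an unadjusted edgeR p under 0.05 and 0 calls by DESeq2. The count of genes called in this comparison was 60 without control 2, 96 without control 1 and 104 without mutant 2. The imprinted count was 7 of 22 without control 1, 5 without control 2, 12 without mutant 1 and 10 without mutant 2.

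**Figure D4:**
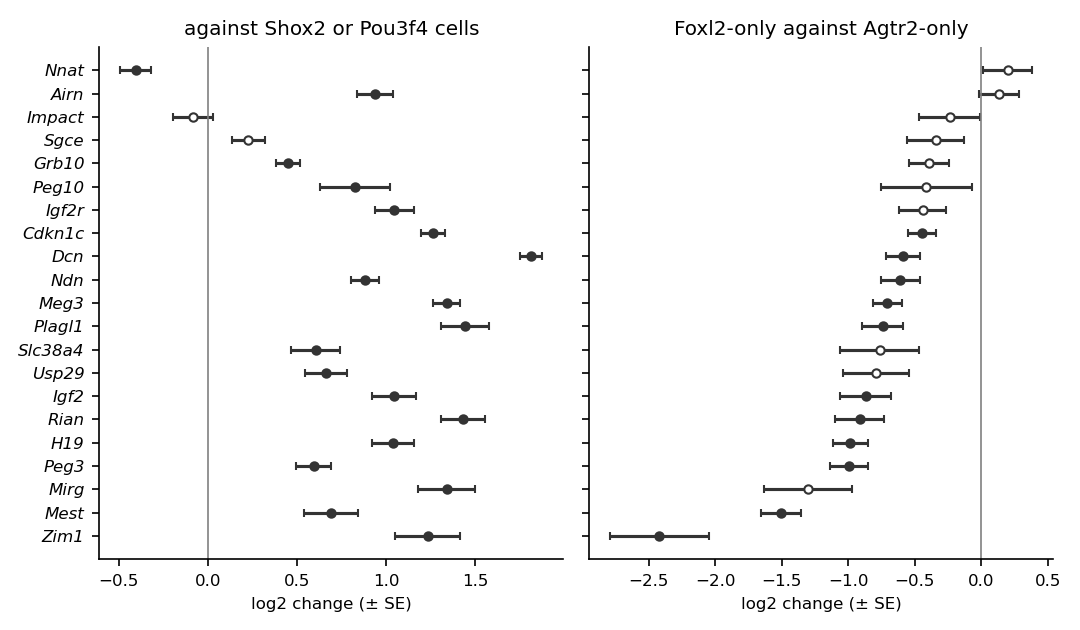
Log2 change (± SE) of 21 imprinted growth genes in the Foxl2 or Agtr2 cells against the Shox2 or Pou3f4 cells (left) and in the cells with Foxl2 alone against those with Agtr2 alone (right). Filled points were called. Most points lie right of 0 on the left and left of 0 on the right, down to -2.42 for Zim1.

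Fewer of these cells were found in the mutant libraries. Of the kept cells, 5.55% (4.86 to 6.29, exact 95% binomial interval) and 6.18% (5.27 to 7.21) were of this kind in the controls and 3.07% (2.48 to 3.75) and 3.81% (3.25 to 4.44) in the mutants. The groups did not overlap, with means of 5.87% ± 0.451 and 3.44% ± 0.525 (SD, n = 2 libraries each). The difference was -2.42 percentage points (exact two-sided permutation p = 0.333, the smallest that 2 against 2 libraries allow). Cells thinned to 3000 UMIs each gave 3.78% and 3.74% against 1.69% and 2.66%. The Shox2 or Pou3f4 cells overlapped between the groups, at 15.8% and 14.8% against 19.6% and 15.0%. Foxl2 was detected in 10.2% and 9.87% of mesenchymal cells in the controls and in 4.24% and 7.03% in the mutants, and after thinning in 6.33% and 5.35% against 1.23% and 4.81%. Agtr2 was detected in 16.3% and 13% against 13% and 12.2%, with control 2 and mutant 1 nearly level, and after thinning the groups overlapped. Tmeff2, also a gene of the rule, was detected in 13.7% and 15.6% against 10.0% and 11.5%. After thinning it was detected in 9.44% and 11.0% against 5.36% and 9.29%. Cdh18 and Epha6 were lower in both mutants before thinning and overlapped after it. Whether the change in share differed between Foxl2 and Agtr2 was not tested. In sums over all collagen-positive mesenchymal cells, Foxl2 stood at 20.6, 19.2, 6.41 and 16.8 CPM (-0.83 ± 0.36, edgeR adjusted p 0.646) and Agtr2 at 51.8, 42.7, 37.5 and 39.4 CPM (-0.34 ± 0.11, edgeR adjusted p 0.560). Neither passed. Dlk1 was at 683, 626, 587 and 662 CPM there and overlapped between the groups.

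Within the Foxl2 or Agtr2 cells, no gene passed between mutant and control. Of 9798 genes tested, 0 (0%) were called by edgeR, 625 had an unadjusted p under 0.05, and DESeq2 called 4. Yap1 was at 71.5, 53.2, 82.7 and 52.4 CPM (0.026 ± 0.25) and Wwtr1 at 154, 185, 181 and 176 CPM (0.011 ± 0.17), with overlapping groups for both. The 3-prime reads can come from transcripts that lack a floxed exon, so these levels do not check the deletion. Sox10 was at 1.20 CPM or less, too low to test. Of 17 YAP and TAZ target genes 0 were called, and the lowest p was that of Amotl2, at 70.9, 94.7, 57.3 and 48.5 CPM (-0.70 ± 0.21, edgeR adjusted p 0.632).

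The 8 genes of lowest p are given as not passed. Pax3, a paired-box gene of neural crest, was at 58.9, 51.6, 184 and 143 CPM, both mutants above both controls (1.49 ± 0.19, edgeR adjusted p 0.126). Epha3, which encodes a receptor for ephrin A ligands, was at 254, 232, 752 and 483 CPM, again with the groups apart (1.28 ± 0.20, edgeR adjusted p 0.293). Cxcl14 was at 397, 455, 200.4 and 263 CPM (-0.94 ± 0.17), both mutants below both controls. Adgrg6, an adhesion receptor gene, stood at -1.55 ± 0.26, Ptchd4 at -2.35 ± 0.44 and Olfr1369-ps1, which GENCODE lists as protein-coding despite its pseudogene symbol, at -2.50 ± 0.42. Cdk1, the mitotic kinase gene, was at 51.1, 60.0, 118 and 109.6 CPM (0.98 ± 0.18) and Polr2f, an RNA polymerase subunit gene, at 179.7, 175, 319 and 335 CPM (0.82 ± 0.15). DESeq2 called Epha3 (adjusted p 6.97e-05), Pax3 (0.00418), Cxcl14 (0.0197) and Trps1 (0.0404). In the cells with Agtr2 alone, edgeR called 8 genes, among them Epha3 at 201, 167, 879 and 438 CPM (1.79 ± 0.26, adjusted p 0.0143) and Pax3 (1.39 ± 0.23, adjusted p 0.0208). In those with Foxl2 alone edgeR tested 5825 genes and called 0, while 328 had an unadjusted p under 0.05, and Epha3 stood at 0.72 ± 0.24.

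The change of Epha3 differed between these cells and the Shox2 or Pou3f4 cells. In the latter it stood at 284, 386, 399.9 and 279 CPM and overlapped between the groups. The difference of the 2 changes was 1.27 ± 0.17 on the log2 scale (edgeR interaction test, adjusted p 0.0424), 1 of 2 genes called of 12079 (0.0166%). It was not called without control 2 (adjusted p 0.0567), without mutant 1 (0.104) or with stricter cells (0.0898), at changes of 0.98 to 1.25. Pax3 was at 137, 144, 193 and 172 CPM in the Shox2 or Pou3f4 cells, and its interaction of 1.16 ± 0.19 did not pass (adjusted p 0.114). The other gene called was Fabp7, a fatty acid-binding protein gene of glia, at 16.2, 4.23, 1.06 and 0 CPM from 27, 5, 1 and 0 UMIs, against 2.25, 1.48, 6.34 and 45.9 CPM. Its call was lost without mutant 2 (edgeR adjusted p 0.271), whose Shox2 or Pou3f4 cells held 180 of its UMIs, and with DESeq2 (adjusted p 0.153). Fabp7 is itself on the glial list, and the other 7 glial markers summed to 18.8, 15.1, 24.7 and 39 CPM in the Shox2 or Pou3f4 cells and 45.1, 18.6, 20.1 and 33.9 CPM in the Foxl2 or Agtr2 cells. The part of glial transcripts in this result was not tested.

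In the main edgeR fit of all 4 libraries, no S or G2/M phase gene passed between mutant and control. Of 36 tested, 32 had a positive change, 17 an unadjusted edgeR p under 0.05 and 0 passed, with a median of 0.65 beside -0.0026 over all genes. With the replicate block 1 gene was called, Cenpf (1.37, edgeR adjusted p 0.00315), named after its value was seen. With no filter on low counts 7 were called. Summed over the list, the Foxl2 or Agtr2 cells held 1666, 2454, 2724 and 3367 CPM, mutants above controls, and the Shox2 or Pou3f4 cells 4058, 4211, 4108 and 3972 CPM, with overlapping groups. In mutant 1 the 14 cells with both Foxl2 and Agtr2 held 1306 of the 2569 UMIs. Cells with Agtr2 alone were at 1823, 2389, 1601 and 3465 CPM and cells with Foxl2 alone at 1587, 2656, 1857 and 2901 CPM, and in both kinds the groups overlapped.

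Some genes near Sox10 on chromosome 15 stood apart between the groups in both kinds of cell. In the Foxl2 or Agtr2 cells Eif3l, a translation factor gene, was at 78.1, 87, 148 and 173 CPM, Micall1 at 8.41, 5.07, 18 and 20.4 CPM and Polr2f at 179.7, 175, 319 and 335 CPM. In the Shox2 or Pou3f4 cells Eif3l was at 91.7, 84.2, 177 and 183 CPM, Micall1 at 7.57, 9.23, 18 and 16.6 CPM and Polr2f at 188, 185, 362 and 327 CPM. Of 12 listed genes beside Sox10, 9 were tested in the Foxl2 or Agtr2 cells and 0 were called, with 3 at an unadjusted edgeR p under 0.05. Over all mesenchymal cells 2 of 16187 genes (0.0124%) were called, Eif3l (1.04 ± 0.093, edgeR adjusted p 0.0472) and Vtn. These genes were named after their values were seen.

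**Figure D5:**
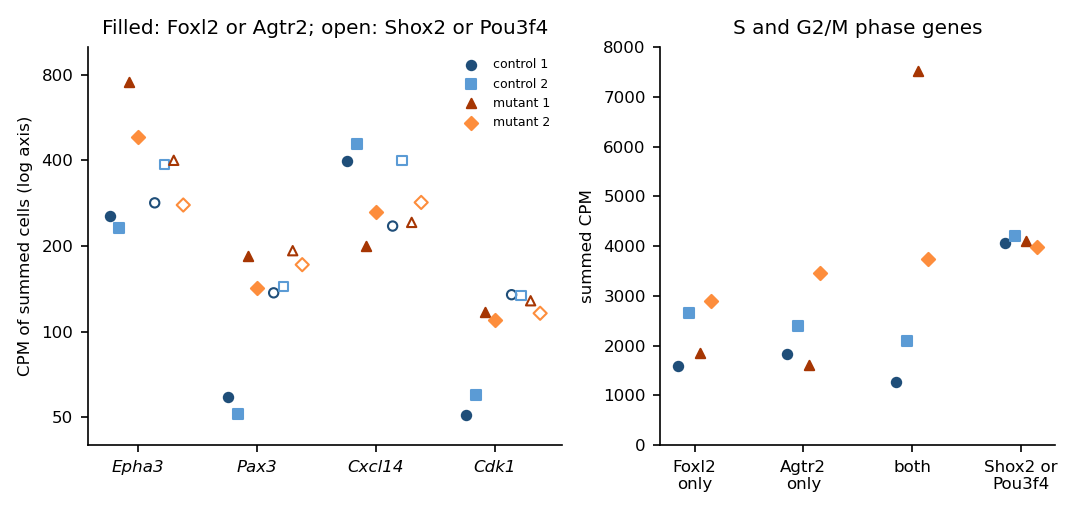
Left, level of 4 genes in the Foxl2 or Agtr2 cells (filled) and the Shox2 or Pou3f4 cells (open) of each library, in CPM on a log axis. Right, summed CPM of the S and G2/M phase genes by kind of cell. Epha3 and Pax3 are higher in both mutants in the filled points, and the 14 cells of mutant 1 with both genes reach 7526 CPM of cell cycle genes.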

How the data were processed

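The authors deposited filtered 10x matrices of raw UMI counts per gene and barcode for 4 libraries, made with Cell Ranger 8.0.1 per the file headers, while the submitters' processing notes name Cell Ranger 4, Seurat 4.3.0 and mm10. Libraries held 4566, 2827, 3624 and 4846 barcodes and 35887490, 20170229, 30040144 and 27646940 UMIs. The labels name more than 1 sequencing provider without assigning libraries, so such a batch cannot be told apart from the groups. Cells had been frozen after enzymatic dissociation.

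Members were found by the rule given in the report, and members, lists and tests were chosen with earlier results of these data known. Raw counts were summed per library and kind of cell and fitted in R 4.3.3 with edgeR 4.0.16 (quasi-likelihood, TMM, filterByExpr, Benjamini-Hochberg at 0.05), with DESeq2 1.42.0 as an alternative. Standard errors were taken from each gene's F statistic and log2 change. The 13 genes of the rule, and Dlk1 in contrasts of the whole group, were left out of tests, except in the fit over all collagen-positive mesenchymal cells, whose cells were not chosen by Foxl2 or Agtr2. In the comparison of cells with Foxl2 alone and Agtr2 alone, all 13 were left out, where the design had named only those 2. Fits were tested on simulated data. The fit over all mesenchymal cells and those within cells with Foxl2 or Agtr2 alone were added after seeing the data.

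Named genes were, per comparison, the 12 largest changes each way among genes called, moving alike in all 4 libraries and reaching a mean of 20 CPM, the 8 lowest p between mutant and control, and passing members of the gene lists. A few genes that met this rule are not reported here. Doublets were scored with Scrublet in scanpy 1.11.5. Its own threshold marked 2, 2, 9 and 0 cells and had not worked, so doublets were kept, and the highest scores (149, 56, 87 and 163 cells, of them 7, 3, 4 and 10 members) were removed as an alternative. Thinning to 3000 UMIs left out 268, 172, 211 and 543 shallower kept cells. Positions are those of GENCODE M21, which held 32235 of 32285 features. Other alternatives were the size factors of DESeq2 in edgeR, low counts left unfiltered, stricter cells (1000 genes and 5% mitochondrial UMIs), 2 UMIs of Foxl2 and Agtr2, other comparison cells, a replicate block and each library left out in turn.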

Additional observations from a re-analysis of the deposited data

Results flagged for a closer look

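The change between mutant and control differed between the Foxl2 or Agtr2 cells and the Shox2 or Pou3f4 cells for 2 genes, by the edgeR interaction test. Epha3 differed by 1.27 on the log2 scale (adjusted p 0.0424), higher in both mutants in the former and overlapping in the latter. Fabp7 differed by -8.09 (adjusted p 0.0175), a fitted value that depends on the prior count because mutant 2 held 0 UMIs of it in the Foxl2 or Agtr2 cells and 180 in the Shox2 or Pou3f4 cells. The Epha3 call was lost without control 2 (edgeR adjusted p 0.0567), without mutant 1 (0.104) and with stricter cells (0.0898). The Fabp7 call was lost without mutant 2 (edgeR adjusted p 0.271) and with DESeq2 (adjusted p 0.153). Groups of 2 libraries are too small for the test of single far-off samples.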

How the results depend on the processing

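The lower share in the mutants kept its direction in every alternative run: -1.59 points in thinned cells, -3.08 of mesenchymal cells, -1.18 with 2 UMIs of Foxl2 and Agtr2, and -2.79 to -2.05 with each library left out. Between mutant and control, calls went from 0 to 4 with DESeq2, 152 with no filter on low counts, 17 with the replicate block, 8 in cells with Agtr2 alone and 1 to 23 with each library left out. Against the Shox2 or Pou3f4 cells, 2123 calls became 1051 with DESeq2, of which 1047 were shared, and 1354 to 1706 with each library left out. Between cells with Foxl2 alone and Agtr2 alone, 166 became 89 with DESeq2, all shared, 365 with no filter, and 60 to 237 with each library left out. Interaction calls went from 2 to 85 with no filter, 1 with stricter cells, 10 with the replicate block and 2 to 49 with each library left out. The causes were not tested.

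Deviations of same-numbered libraries correlated at 0.023 and those of crossed numbers at -0.023 (9807 genes, 2 pairs). With 2 libraries per group these are 1 value with its sign turned, so whether numbers pair the samples cannot be decided. The block left the share difference at -2.42 and Pax3 and Epha3 were among its 17 calls, as was 1 gene of the S and G2/M list, Cenpf. The block also called Hist1h2ap (1.63), a histone gene, and Prc1 (1.36). Of 96 genes named against the Shox2 or Pou3f4 cells, 1271 of 1332 alternative values kept direction and call. Pax9 (0.96) and Mme (0.65) reversed against Pou3f4-positive cells alone. Of 47 genes named between cells with Foxl2 or Agtr2 alone, 380 of 414 values did and none reversed. Cdk1 reversed to -0.23 in cells with Foxl2 alone. Yap1, near 0, reversed to -0.10 there, -0.16 without control 2 and -0.34 without mutant 1, and was 0.32 without mutant 2. Wwtr1, also near 0, reversed to -0.24 in cells with Foxl2 alone, -0.079 with Agtr2 alone, -0.015 with 2 UMIs, -0.12 without control 1 and -0.020 without mutant 1, and was 0.13 without control 2. The 12 cells with Foxl2 alone in mutant 1 limit every value that rests on them.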
